A study of Mus musculus with 12 samples.

Results

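Arachidonic acid is freed from membrane phospholipids by a phospholipase and is then turned into leukotrienes, prostanoids or hydroxylated fatty acids by separate branches of enzymes. Neutrophils are a main source of leukotriene B4, a lipid that draws further neutrophils to a site, and they also make prostaglandin E2 once cyclooxygenase is induced. A related lipid, platelet-activating factor (PAF), is made from the lysophospholipid that such phospholipases leave behind, and is destroyed by PAF acetylhydrolases. The genes followed here are 9 enzymes and helper proteins of these routes, Pla2g4a, Alox5, Alox5ap, Lta4h, Ltc4s, Ptgs1, Ptgs2, Alox15 and Pla2g7. They were chosen by name, with earlier results of these data known, so their counts beside all genes are descriptive. For each the array row that carries its symbol was taken, and 8 of the 9 were measured among 19937 genes. Each of the 8 had a single row. No row was named for Ptgs1, the gene of the constitutive cyclooxygenase, which was not analysed here.

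The cells were sorted by flow cytometry from untreated C57BL/6 mouse bone marrow and were not cultured. LSK cells are stem and progenitor cells that lack lineage antigens and carry Sca1 and cKit. Promyelocytes, myelocytes and granulocytes are the next steps of neutrophil formation, and were gated with Gr-1, cKit, CD34 and CD16/32 after cells with lymphoid lineage antigens or Sca1 had been set aside. Each population had 3 arrays labelled as biological replicates (Affymetrix Mouse Gene 1.0 ST, 12 arrays in all). Nothing in the sources used here ties a replicate to an animal, so the p-values measure the spread between these preparations.

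All levels below are log2 RMA values, a scale on which 1 unit is a 2-fold difference. A value compares 1 gene across arrays and says nothing of 1 gene against another, because rows differ in their probes. A gene was called between 2 populations when limma's moderated test gave an adjusted p under 0.05 (Benjamini-Hochberg over the 19937 genes) and the fold was at least 2. Every adjusted p below comes from that fit, with 3 arrays per population. A mean of 4.54 or less was treated as dim, since 95% of the population means of 1194 olfactory and vomeronasal receptor genes lay at or under it. No fold is given against a dim mean.

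The stage labels fitted their defining markers. Summed over each list, the log2 level of 8 stem and progenitor genes was 8.25 to 8.50 in granulocytes and 12.94 to 13.34 in LSK cells. That of 6 promyelocyte granule genes was 13.87 to 14.43 in promyelocytes and 11.31 to 13.54 in LSK cells, a narrow gap. It was 10.71 to 10.83 in myelocytes and 8.14 to 9.23 in granulocytes. That of 10 neutrophil genes was 15.84 to 16.09 in granulocytes and 15.89 to 16.00 in myelocytes, which it did not part. In promyelocytes it was 10.93 to 12.29, and in LSK cells 11.08 to 11.52. Arrays of 1 population correlated at 0.981 to 0.991 across genes. Markers of other cell types were present in some arrays and are given beside the results they moved with. In such sorted bulk RNA, fewer cells of a type and less RNA per cell cannot be told apart.

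The start regions of the 3 members with the widest range over the stages are shown first, since they are the DNA from which these transcripts begin. The sequences are RefSeq's (build GRCm38.p6) and cover the 140 bases before the start, 5′ to 3′ on the gene's own strand. Capitals mark letters that match a searched motif. All motifs were searched on both strands. For C/EBP factors, which drive granulocyte genes, the letters were TTNNGNAA. For ETS factors, the family of PU.1, they were GAGGAA, and for the general factor Sp1 they were GGGCGG. The short CREB motif was searched as CGTCA, the AP-1 motif as TGANTCA, and the TATA box, which places the start of transcription, as TATAAA.
Alox5 (chr6:116461179-116461318, minus strand): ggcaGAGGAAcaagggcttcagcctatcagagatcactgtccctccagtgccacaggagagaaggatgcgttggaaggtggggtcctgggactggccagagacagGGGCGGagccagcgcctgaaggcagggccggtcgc
Ptgs2 (chr1:150099891-150100030, plus strand): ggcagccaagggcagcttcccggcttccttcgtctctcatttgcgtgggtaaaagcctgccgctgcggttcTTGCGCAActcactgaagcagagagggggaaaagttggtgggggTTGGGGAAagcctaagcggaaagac
Pla2g7 (chr17:43568311-43568450, plus strand): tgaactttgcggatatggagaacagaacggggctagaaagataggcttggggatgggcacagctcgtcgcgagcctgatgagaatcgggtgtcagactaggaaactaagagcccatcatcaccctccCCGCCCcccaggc

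Alox5 held an ETS match that began at base -136 and an Sp1 match at -35. Ptgs2 held C/EBP matches at -69 and -25, and in the rest of its 300-base window an ETS match at -247, an Sp1 match at -170 and a CREB match at base 14 after the start. Pla2g7 held 1 Sp1 match, at -13 on the opposite strand. Of 32851 promoter windows of the same length, 40.7% held the C/EBP letters, 28.3% ETS, 35.7% Sp1, 20.8% the CREB letters, 7.8% AP-1 and 13.6% the TATA box, so each of these matches is a common one. Windows were at hand for 7 of the 9 members.

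Expression differed among the 4 populations for 7 of the 8 measured members (limma's moderated F test, adjusted p under 0.05), against 54% of all genes. The exception was Pla2g4a. By the range of their population means 3 of the 8 lay at the far end of all genes, with Pla2g7 at 6.62 log2 units (percentile 99.9), Alox5 at 5.87 (percentile 99.7) and Ptgs2 at 4.87 (percentile 99.2). Pla2g4a had a range of 0.32, at percentile 20. The members did not share 1 course. The largest number moved between promyelocytes and myelocytes, and after that step the members parted, with 2 higher and 2 lower in granulocytes.

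**Figure D1:**
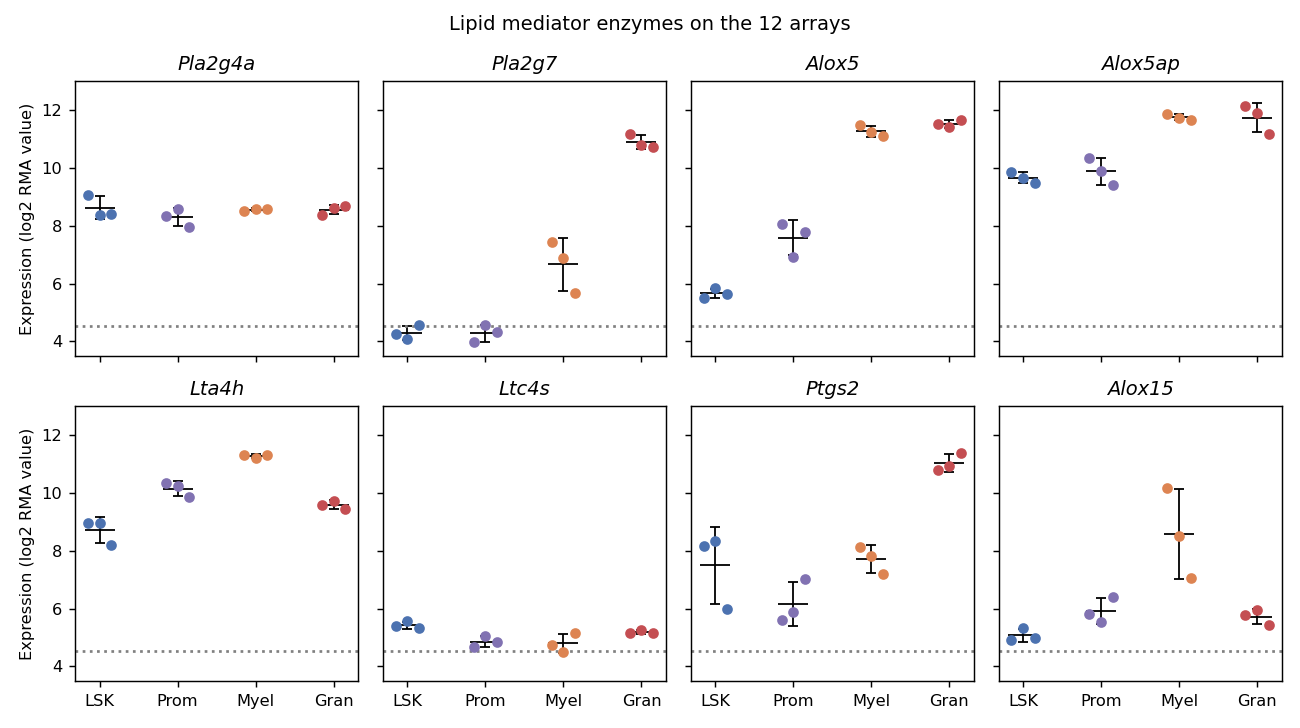
Expression of the 8 measured members in each of the 12 arrays (y axis, log2 RMA value) for LSK cells, promyelocytes (Prom), myelocytes (Myel) and granulocytes (Gran). Points are arrays, bars are the mean and SD (n = 3), and the dotted line is the dim level of 4.54. Alox5 and Alox5ap were not called between granulocytes and myelocytes, Lta4h and Alox15 peaked in myelocytes, and Ptgs2 and Pla2g7 peaked in granulocytes.

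The release of arachidonic acid is the work of cytosolic phospholipase A2, encoded by Pla2g4a. Its level was 9.07, 8.36 and 8.42 in LSK cells, and 8.34, 8.59 and 7.97 in promyelocytes. It was 8.51, 8.58 and 8.57 in myelocytes, and 8.38, 8.60 and 8.68 in granulocytes. All 4 populations overlapped. None of the 6 comparisons was called, and the F test gave an adjusted p of 0.459. Granulocytes minus myelocytes was 0.00 (95% confidence interval -0.41 to 0.42), and promyelocytes minus LSK cells was -0.32 (-0.73 to 0.10), so a 2-fold change lay outside both intervals.

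Alox5 encodes the lipoxygenase that makes leukotriene A4 from arachidonic acid. Its level was 5.49, 5.83 and 5.64 in LSK cells, and 8.07, 6.91 and 7.77 in promyelocytes. It was 11.46, 11.22 and 11.11 in myelocytes, and 11.51, 11.40 and 11.65 in granulocytes. The LSK arrays lay below all others, the promyelocyte arrays stood apart in between, and the myelocyte and granulocyte arrays overlapped. Alox5 rose 3.81-fold in promyelocytes over LSK cells (difference 1.93 ± 0.23 (SE), adjusted p = 5.74e-05) and 12.8-fold in myelocytes over promyelocytes (3.68 ± 0.23, adjusted p = 5.38e-09). Granulocytes minus myelocytes was 0.26 (-0.23 to 0.74, adjusted p = 0.462), which was not called. Across the whole course granulocytes exceeded LSK cells 58.3-fold (adjusted p = 1.45e-11).

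Alox5ap encodes the membrane protein that hands arachidonic acid to that lipoxygenase. It was 9.87, 9.64 and 9.47 in LSK cells, and 10.33, 9.90 and 9.41 in promyelocytes. It was 11.85, 11.73 and 11.65 in myelocytes, and 12.14, 11.91 and 11.16 in granulocytes. The arrays fell into a lower set of LSK cells and promyelocytes and an upper set of myelocytes and granulocytes, with overlap inside each set and none between them. Myelocytes exceeded promyelocytes 3.65-fold (adjusted p = 1.55e-05). Promyelocytes minus LSK cells was 0.22 (-0.30 to 0.74, adjusted p = 0.645), and granulocytes minus myelocytes was -0.01 (-0.53 to 0.52, adjusted p = 0.988). The first of the 2 leukotriene genes was thus already called in promyelocytes, and Alox5ap was not. The difference between these 2 genes in that step was not tested.

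Lta4h encodes the hydrolase that turns leukotriene A4 into leukotriene B4. Its level was 8.97, 8.97 and 8.21 in LSK cells, and 10.33, 10.23 and 9.85 in promyelocytes. It was 11.29, 11.20 and 11.32 in myelocytes, and 9.59, 9.74 and 9.43 in granulocytes. The 4 sets of arrays did not overlap, with myelocytes on top, then promyelocytes, granulocytes and LSK cells. Lta4h rose 2.68-fold in promyelocytes over LSK cells (adjusted p = 0.000192) and 2.19-fold in myelocytes over promyelocytes (1.13 ± 0.20, adjusted p = 0.000227). Without promyelocyte array 3 that second difference was 0.99, just under the fold of 2. It fell 3.22-fold in granulocytes against myelocytes (-1.69 ± 0.20, adjusted p = 1.5e-05). Granulocytes minus LSK cells was 0.87 (0.45 to 1.29, adjusted p = 0.00152), a difference under the fold required.

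Markers of other cell types also rose between LSK cells and promyelocytes, the step in which Alox5 and Lta4h were first called. Of the basophil and mast cell list 6 of 10 were called higher in promyelocytes, of the eosinophil list 5 of 7, and of the monocyte and macrophage list 6 of 12. Within the promyelocytes Alox5 was lowest in array 2, as were Mcpt8 (10.56, 8.33 and 9.77), Epx (9.81, 5.06 and 10.19) and the basophil and mast cell sum (12.61, 11.21 and 11.44). The single basophil and mast cell markers were mixed. Fcer1a, Prss34 and Cd200r3 were also lowest in array 2. Ms4a2 (8.42, 7.30 and 6.20), Cpa3 (9.79, 9.38 and 8.13), Hdc (10.02, 10.05 and 9.14) and Cma1 were lowest in array 3. Gzmb and Tpsab1 were lowest in array 1. Lta4h and Alox5ap ran in promyelocytes in the array order of the monocyte and macrophage sum (12.24, 11.55 and 11.36). Both calls held without any 1 array, and the part of these cell types in them was not tested.

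Ltc4s encodes the enzyme that joins leukotriene A4 to glutathione, the entry to the cysteinyl leukotrienes of mast cells, basophils and eosinophils. Its level was low throughout, at 5.32 to 5.56 in LSK cells, 4.67 to 5.04 in promyelocytes, 4.49 to 5.14 in myelocytes and 5.15 to 5.27 in granulocytes. The LSK arrays lay above all others. Ltc4s differed among the populations by the F test (adjusted p = 0.0117), but no comparison reached a 2-fold difference. The widest was myelocytes minus LSK cells, at -0.63 (-0.98 to -0.28, adjusted p = 0.00638).

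Ptgs2 encodes the inducible cyclooxygenase, the first step towards the prostanoids. It was 8.15, 8.35 and 5.97 in LSK cells, and 5.59, 5.88 and 7.02 in promyelocytes. It was 8.14, 7.82 and 7.19 in myelocytes, and 10.78, 10.93 and 11.38 in granulocytes. The granulocyte arrays lay above all others, LSK array 3 lay among the promyelocytes, and LSK arrays 1 and 2 lay just above the myelocytes. Ptgs2 rose 9.95-fold in granulocytes over myelocytes (3.31 ± 0.50, adjusted p = 0.00015) and 11.6-fold in granulocytes over LSK cells (adjusted p = 1.73e-05). Without LSK array 3 that last difference was 2.78, against 3.54 with it.

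The earlier steps of Ptgs2 rested on single arrays. Promyelocytes minus LSK cells was -1.33 (-2.39 to -0.27, adjusted p = 0.0978), which was not called. Without LSK array 3 it was -2.09 (adjusted p = 0.00185), and without promyelocyte array 3 it was -1.76 (adjusted p = 0.036). Myelocytes exceeded promyelocytes 2.93-fold (adjusted p = 0.0225), a call lost without any 1 of promyelocyte arrays 1 and 2 and myelocyte arrays 1 and 2 (adjusted p = 0.063 to 0.101). LSK array 3 was also the lowest of its group in the summed promyelocyte granule genes, at 11.31, with 13.03 and 13.54 in the other LSK arrays. The part of that in the Ptgs2 value was not tested. Within the myelocytes Ptgs2 ran in the array order of the basophil and mast cell sum (14.05, 13.16 and 12.28). The part of such cells in the Ptgs2 call was not tested either.

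Alox15 encodes a lipoxygenase that adds oxygen further along the arachidonic acid chain, and in mice it is known from resident macrophages and eosinophils. Its level was 4.92, 5.32 and 4.98 in LSK cells, and 5.83, 5.53 and 6.39 in promyelocytes. It was 10.18, 8.52 and 7.05 in myelocytes, and 5.78, 5.95 and 5.44 in granulocytes. All myelocyte arrays lay above all others, and they were spread over 3 log2 units. Alox15 rose 6.36-fold in myelocytes over promyelocytes (2.67 ± 0.51, adjusted p = 0.000526) and fell 7.26-fold in granulocytes against myelocytes (-2.86 ± 0.51, adjusted p = 0.000634). Without myelocyte array 1 these differences were 1.87 and -2.06, and without myelocyte array 3 they were 3.44 and -3.63, and each was still called. Granulocytes minus promyelocytes was -0.19 (adjusted p = 0.777).

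Several markers of basophils and mast cells moved with Alox15 over the myelocyte arrays. Mcpt8, a protease gene of basophils, was 12.15, 10.98 and 9.70 in the 3 arrays, in the same array order as Alox15. Ms4a2 and Fcer1a, which encode chains of the high-affinity IgE receptor, were 9.56, 8.09 and 6.17 and 10.12, 8.07 and 6.95. Of the same list Cpa3, Prss34, Cd200r3 and Gzmb also ran in that array order, and Hdc, Tpsab1 and Cma1 did not. That array order was not particular to Alox15 or to these markers. Alox5, Alox5ap, Ptgs2 and Pla2g7 ran in it too, over narrower spreads, and Lta4h, Ltc4s and Pla2g4a did not. The neutrophil sum also ran in it, at 16, 15.93 and 15.89. The summed level of the 10 basophil and mast cell markers was 8.30 to 9.48 in LSK cells, 11.21 to 12.61 in promyelocytes, 14.05, 13.16 and 12.28 in the 3 myelocyte arrays and 11.58 to 11.81 in granulocytes. Of the 10, 4 were called higher in myelocytes over promyelocytes and 6 lower in granulocytes against myelocytes. Of the list Tpsab1, Cma1 and Gzmb were dim in myelocytes, while Cpa3 was 10.10, 8.96 and 7.17 there. In granulocytes 7 of the 10 were dim, and the remaining sum came mainly from Hdc (11.44 to 11.71). The part of such cells in the Alox15 result was not tested.

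The summed level of 7 eosinophil markers was 7.64 to 7.93 in LSK cells, 8.90 to 12.57 in promyelocytes, 8.48 to 8.81 in myelocytes and 8.36 to 9.08 in granulocytes. It was highest in promyelocyte arrays 1 and 3, at 12.16 and 12.57, and was 8.90 in promyelocyte array 2. Within the promyelocytes Alox15 ran in the same array order, at 5.83, 5.53 and 6.39. Epx, the eosinophil peroxidase gene, was 4.62, 5.10 and 4.84 in myelocytes. Of the 7, 1 was called higher and 3 lower in myelocytes over promyelocytes. The 1 was Ccr3, a chemokine receptor gene, at 6.10, 5.50 and 4.65 in the 3 myelocyte arrays, in the array order of Alox15, and 3.88, 4.16 and 4.37 in promyelocytes. The summed level of 12 monocyte and macrophage markers was 9.57 to 10.45 in LSK cells, 11.36 to 12.24 in promyelocytes, 11.64, 11.06 and 10.16 in myelocytes and 10.86 to 11.10 in granulocytes, and within the myelocytes it ran in the array order of Alox15. By the mean log2 level of the same 12 markers, myelocyte array 1 was the highest of the 12 arrays, at 7.50, with 7.31 in promyelocyte array 1. The part of eosinophils or monocytes in the Alox15 result was not tested either.

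**Figure D2:**
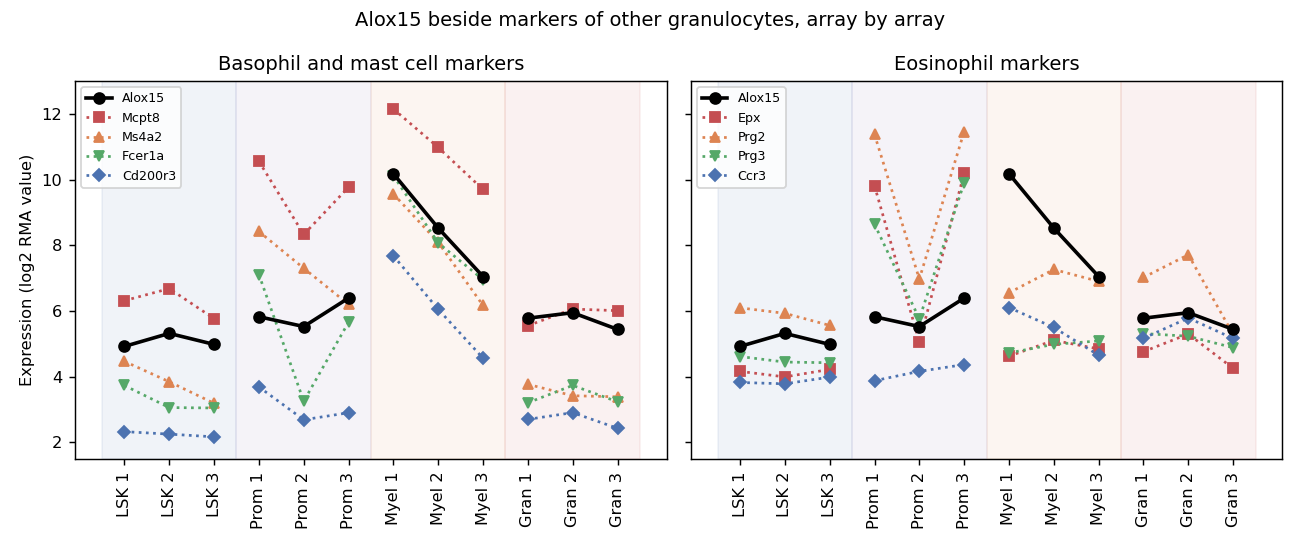
Alox15 (black) beside 4 markers of basophils and mast cells (left) and 4 of eosinophils (right) in each array, in log2 RMA values on the y axis. Lines join the arrays of a population by number and mark no order in time. Of the basophil and mast cell markers not shown, Hdc, Tpsab1 and Cma1 did not run in the array order of Alox15 in myelocytes. In myelocytes Alox15 was 10.18, 8.52 and 7.05 and Mcpt8 was 12.15, 10.98 and 9.70, while Epx was at or under 5.10 and Ccr3 was 6.10, 5.50 and 4.65.

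Pla2g7 encodes a secreted PAF acetylhydrolase, which cuts PAF and oxidised phospholipids. It was 4.26, 4.08 and 4.56 in LSK cells, and 3.98, 4.57 and 4.31 in promyelocytes. It was 7.44, 6.90 and 5.66 in myelocytes, and 11.18, 10.80 and 10.73 in granulocytes. The means of LSK cells and promyelocytes were dim, the myelocyte arrays all lay above them, and the granulocyte arrays lay above every myelocyte array. Pla2g7 rose 18.9-fold in granulocytes over myelocytes (4.24 ± 0.32, adjusted p = 4.01e-07). It was also called higher in myelocytes than in promyelocytes (2.38 ± 0.32, adjusted p = 2.23e-05), with no fold because the promyelocyte mean was dim. Within the myelocytes its values ran in the array order of the monocyte and macrophage sum and of the basophil and mast cell sum. In granulocytes, where it was highest, the monocyte and macrophage sum was 10.86 to 11.10, against 10.16 to 11.64 in myelocytes. Of the 12 markers 3 were called higher and 4 lower in granulocytes over myelocytes. The 3 that rose were Csf1r, Cd68 and Adgre1, with differences of 1.20, 1.24 and 1.28. The 4 that fell were Ccr2, Ly86, Ms4a6c and Cx3cr1. Ccr2 was 7.27 to 9.13 in myelocytes and 5.26 to 6.19 in granulocytes, and Ly86 was 6.83 to 8.52 and 5.21 to 6.45. In the same populations Ms4a6c was 7.73 to 9.51 and 5.63 to 6.84, and Cx3cr1 was 5.95 to 7.64 and 5.69 to 5.88. Within the myelocytes all of these risers and fallers ran in the array order of Pla2g7. The part of monocytes, macrophages or basophils in the Pla2g7 values was not tested.

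Counted by step, 2 of the 8 members were called higher in promyelocytes than in LSK cells (Alox5 and Lta4h) and 0 lower, where 1.61% of all genes were called higher and 2.75% lower. At an unadjusted p under 0.05 with the same fold, Ptgs2 was lower as well, and no other member changed its call in any of the 6 comparisons. Between promyelocytes and myelocytes 6 of 8 were called higher in myelocytes and 0 lower, against 7.61% and 9.87% of all genes. The 6 were Alox5, Alox5ap, Lta4h, Ptgs2, Alox15 and Pla2g7, and the median difference of the 8 was 1.71, with 0.01 over all genes. Between myelocytes and granulocytes 2 of 8 were higher in granulocytes (Ptgs2 and Pla2g7) and 2 lower (Lta4h and Alox15), against 2.35% and 5.96% of all genes. The shares of all genes depended on scaling. In that last step, centring each array on its 75th percentile gave 3.19% higher and 4.44% lower, with the same 2 and 2 members. In promyelocytes over LSK cells, centring on the median gave 2.04% higher and 2.32% lower, with 2 members higher and 0 lower.

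Over longer spans, 5 members were called higher in myelocytes than in LSK cells (7.74% of all genes higher and 10.8% lower), all of the 6 above except Ptgs2. In granulocytes against promyelocytes 4 were higher (10.1% of all genes higher and 16.3% lower), and in granulocytes against LSK cells 4 were higher (9.59% higher and 16.5% lower). In both the 4 were Alox5, Alox5ap, Ptgs2 and Pla2g7, and no member was called lower. These comparisons share arrays with the steps and with each other. With the arrays centred on the 75th percentile, Lta4h was called as well in granulocytes over LSK cells (1.08, adjusted p = 0.000148), and 12.2% of all genes were higher and 13.9% lower. In granulocytes over promyelocytes that centring gave 12.9% higher and 13.8% lower, with 4 members higher and 0 lower.

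**Figure D3:**
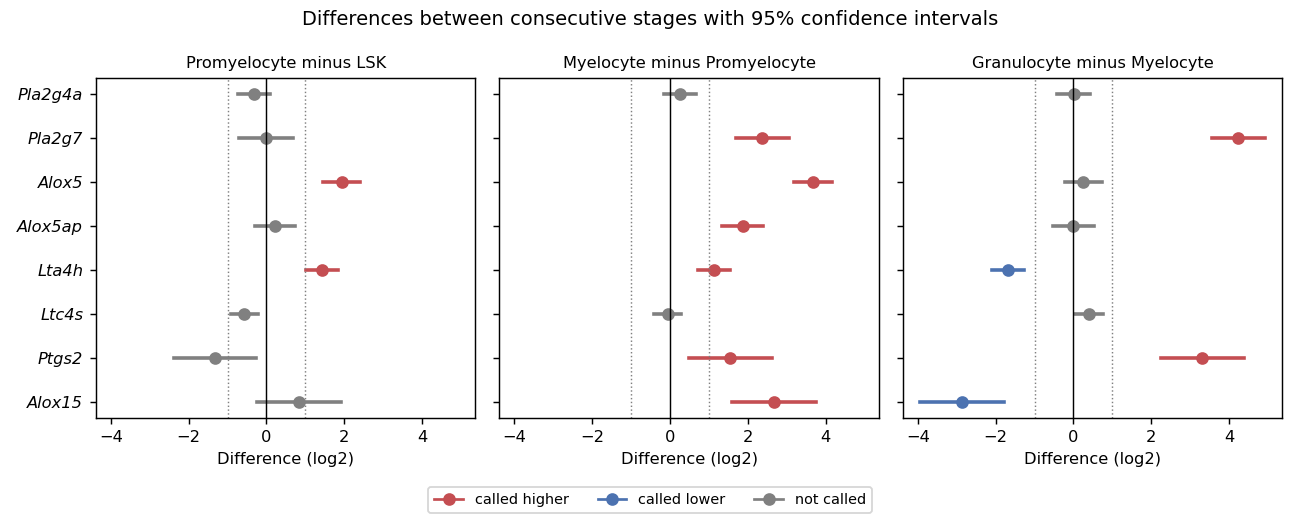
Differences of the 8 members in the 3 consecutive steps (x axis, log2, later minus earlier population), with 95% confidence intervals from the limma fit on 12 arrays. Red marks members called higher, blue lower and grey not called, and the dotted lines mark a 2-fold difference. Red points number 2, 6 and 2 in the 3 panels, and the 2 blue points, Lta4h and Alox15, are in the last.

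Ordered by level, Alox5 and Alox5ap had granulocytes and myelocytes on top, 2 neighbours that were not called apart. Lta4h had myelocytes above promyelocytes, which were called apart, then granulocytes and LSK cells, whose neighbours in that order were not. Ptgs2 had granulocytes above myelocytes, which were called apart, and then myelocytes, LSK cells and promyelocytes, whose neighbours were not. Pla2g7 had granulocytes, then myelocytes, then LSK cells and promyelocytes, of which only the last 2 were not called apart. Alox15 had myelocytes above a set of promyelocytes, granulocytes and LSK cells with no call among its neighbours.

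The genes whose course was most like that of a member were found by the root mean square difference of gene-centred log2 values over the 12 arrays. Nearest to Alox5 were Xdh (0.21), Siglece (0.23) and Cybb (0.33), the last of which encodes the membrane core of the NADPH oxidase. Nearest to Alox5ap were Tmsb4x, Ctbs and Cyb5r4 (0.19 to 0.21), and nearest to Lta4h were Lbp, Ero1a and Agps (0.23 to 0.30). For Pla2g7 they were Il1b, the gene of interleukin 1 beta (0.47), Arg2 (0.48) and Clec4d (0.52). For Ptgs2 they were Hcar2 (0.52), Acod1 (0.62) and Cxcl2, a neutrophil chemokine (0.62). For Alox15 they were Il6 (0.29), Cd200r3 (0.35) and the histamine receptor gene Hrh4 (0.40), of which Cd200r3 is also on the basophil and mast cell list. Ltc4s, whose range was 0.63, had Zfp462, Bpifb5 and Bcam at 0.15 to 0.16. Among the members themselves the closest were Ltc4s and Pla2g4a at 0.33, the 2 with the narrowest ranges, followed by Alox5ap and Lta4h at 0.91.

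Around the members, 7 lists of other genes of the pathway held 82 genes, of which 76 were measured and 17 were dim in every population. In promyelocytes over LSK cells 5 were called higher and 7 lower (1.61% and 2.75% of all genes), in myelocytes over promyelocytes 17 higher and 6 lower (7.61% and 9.87%), and in granulocytes over myelocytes 3 higher and 7 lower (2.35% and 5.96%). The counts of the single lists below are read against the same shares. The median difference of the 76 was 0.09, 0.10 and 0.12 in the 3 steps, with 0.04, 0.01 and 0.09 over all genes.

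A list of 10 genes covered the conversion and breakdown of leukotrienes, with Cotl1 counted in, whose product binds the Alox5 protein. Of the 10, 4 were called higher and 1 lower in promyelocytes over LSK cells. In myelocytes over promyelocytes 5 were higher, Cotl1 among them, and 0 lower. In granulocytes over myelocytes 2 were higher and 1 lower. Mgst1, a membrane glutathione transferase gene, averaged 10.71 ± 0.11 in myelocytes and 7.78 ± 0.75 in promyelocytes (SD, n = 3 each), a 7.67-fold rise (adjusted p = 1.43e-06). Cyp4f18, whose product inactivates leukotriene B4 in mouse neutrophils, was called higher in each step. It averaged 4.66, 5.97, 8.28 and 10.60 in LSK cells, promyelocytes, myelocytes and granulocytes, and its fold in granulocytes over myelocytes was 4.99 (adjusted p = 5.7e-05). Ggt5, which encodes a peptidase that trims leukotriene C4, fell 2.23-fold in promyelocytes against LSK cells (adjusted p = 0.000844) and rose 4.69-fold in granulocytes over myelocytes, averaging 8.44 ± 0.28 in granulocytes and 6.21 ± 0.18 in myelocytes (adjusted p = 1.2e-06). Cotl1, a binding partner of the Alox5 protein, rose 4.66-fold in myelocytes over promyelocytes (adjusted p = 7.6e-08).

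Of 13 receptors for these lipids, 1 was called higher and 2 lower in promyelocytes over LSK cells, 5 were called higher and 0 lower in myelocytes over promyelocytes, and limma called 0 in granulocytes over myelocytes (0 higher and 1 lower at an unadjusted p under 0.05 with the same fold). Ptafr, the PAF receptor gene, averaged 8.38 ± 0.22 in myelocytes and 5.12 ± 0.09 in promyelocytes, a 9.63-fold rise (adjusted p = 6.09e-10). Ptgir, the prostacyclin receptor gene, averaged 8.05 ± 0.15 in myelocytes and 4.82 ± 0.26 in promyelocytes (9.37-fold, adjusted p = 4e-09). Ltb4r1, which encodes the main leukotriene B4 receptor, rose 2.45-fold in promyelocytes over LSK cells (adjusted p = 0.00124) and 6.43-fold in myelocytes over promyelocytes (adjusted p = 1.5e-07). The enzyme that makes leukotriene B4 and the receptor that reads it were therefore both called higher in each of these 2 steps. Cysltr2, a cysteinyl leukotriene receptor gene, was dim in the 3 later populations. In LSK cells it averaged 4.71, near the dim level, with arrays from 3.67 to 5.63. The other receptor called lower in promyelocytes was Tbxa2r, the thromboxane receptor gene, which averaged 5.23 in promyelocytes and 6.48 in LSK cells (adjusted p = 0.000391).

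Of 11 genes for prostanoid synthases and breakdown, 3 were higher and 2 lower in myelocytes over promyelocytes. Of the 3 called higher, 1 was dim in every population, with a mean of 3.75 in myelocytes and 2.66 in promyelocytes. In promyelocytes over LSK cells 0 were called higher and 1 lower, and in granulocytes over myelocytes 1 higher and 2 lower. Ptges, whose product makes prostaglandin E2 downstream of the cyclooxygenases, averaged 7.66 ± 0.07 in myelocytes and 5.04 ± 0.38 in promyelocytes (6.14-fold, adjusted p = 1.78e-08). It fell 2.19-fold in granulocytes against myelocytes (6.52 ± 0.23 in granulocytes, adjusted p = 0.000258), the step in which Ptgs2 rose 9.95-fold. Hpgd, which encodes the dehydrogenase that inactivates prostaglandins, was 4.95 to 5.86 over the granulocyte arrays and 5.26 to 7.44 over the myelocyte arrays, and it was dim in the earlier populations. Cbr1 and Ptges3, a carbonyl reductase and a co-chaperone with prostaglandin E synthase activity, fell 4.51-fold and 2.90-fold in myelocytes against promyelocytes (adjusted p = 7.01e-07 and 5.29e-06).

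Of 12 genes that handle arachidonic acid in membranes, 4 rose and 2 fell in myelocytes against promyelocytes. In promyelocytes over LSK cells 0 were called higher and 2 lower, and in granulocytes over myelocytes 0 higher and 3 lower. The 2 largest rises in myelocytes over promyelocytes were in acyltransferase genes, Lpcat2, whose product makes PAF (9.95 ± 0.19 in myelocytes and 7.46 ± 0.15 in promyelocytes, 5.63-fold, adjusted p = 1.05e-08), and Lpcat4 (3.70-fold, adjusted p = 3.17e-07). Fads2, a desaturase gene of arachidonic acid synthesis, fell 3.07-fold in promyelocytes against LSK cells and 3.13-fold in myelocytes against promyelocytes (adjusted p = 0.00131 and 0.000231). Elovl5, an elongase gene of the same route, fell 3.41-fold in granulocytes against myelocytes (adjusted p = 1.51e-06).

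Of 22 other phospholipases and PAF hydrolases, 7 of them dim in every population, limma called 0 higher and 1 lower in each step, also at an unadjusted p under 0.05 with the same fold, a share near that of all genes. Pafah2, a cytosolic PAF acetylhydrolase gene, averaged 5.57 ± 0.08 in granulocytes and 7.63 ± 0.26 in myelocytes, a 4.16-fold fall (adjusted p = 1.82e-06), in the step in which Pla2g7 rose 18.9-fold. Plaat3 fell 2.48-fold in promyelocytes against LSK cells (adjusted p = 0.000924), and Pla2g12a was dim in myelocytes. Of 5 other lipoxygenases limma called 0 in each of the 3 steps, also at an unadjusted p under 0.05 with the same fold, and 3 of them were dim throughout. Of 3 exporters, Abcc1, which carries leukotriene C4 out of cells, fell 2.16-fold in myelocytes against promyelocytes (adjusted p = 9.84e-05).

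**Figure D4:**
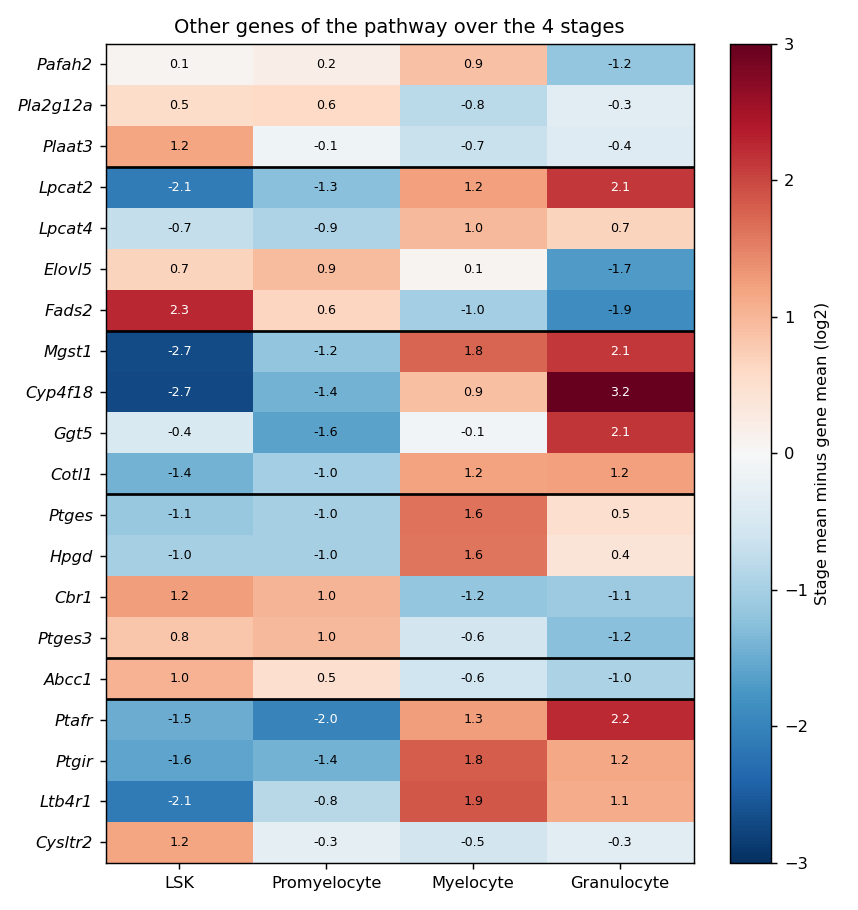
Population means of 20 other pathway genes named in the text (rows), as log2 difference from the gene's mean over the 4 populations (columns). Tbxa2r, also named in the text, is not shown. Black lines part the lists, from top to bottom phospholipases and PAF hydrolases, arachidonate handling, leukotriene conversion and breakdown, prostanoid synthases and breakdown, export and receptors. Ptafr, Ptgir and Ltb4r1 lay above their means in myelocytes and granulocytes, and Fads2 lay above its mean in LSK cells and promyelocytes.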

How the data were processed

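Log2 expression values were deposited by the authors, who labelled total RNA of each population, hybridised it to Affymetrix Mouse Gene 1.0 ST arrays and normalised the arrays with justRMA (background correction, quantile normalisation and median polish). Array medians were 4.96 to 5.12. RMA compresses low values, so folds of dim genes are understated, and the number of arrays limits the precision.

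Of 34760 rows, 21640 carried 1 gene symbol, 1321 several and 11799 none in the platform table. Rows with 1 symbol were used, taking the row with the highest mean per gene (19937 genes). One fit of 4 population means on 12 arrays was made with limma 3.58.1 in R 4.3.3, with 6 contrasts and a moderated F test. Steps were tested on simulated data. The members and gene lists were chosen with earlier results of these data known. Other pathway genes were named as at most the 4 per list with the largest called difference in a consecutive step, and pattern neighbours as the nearest 3. Tbxa2r was named in addition, as the other receptor called lower in promyelocytes against LSK cells. Of the rows with 1 symbol, 21553 matched RefSeq. Alternatives covered scaling, filters, thresholds, the choice of row, the replicate number as a block and leaving out each array. Same-numbered myelocyte and promyelocyte arrays deviated together (r = 0.118 to 0.196, with -0.158 to 0.0184 for the other pairs), a pairing that comes from the data and not from the labels. In the other comparisons at least 1 same-numbered pair was at or under 0.1.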

Additional observations from a re-analysis of the deposited data

How the results depend on the processing

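The counts of members called stayed within 1.5 times their values under all alternatives run. No member's difference that was called in the main or the alternative fit reversed. Some differences called in neither changed sign. Ptgs2 in myelocytes minus LSK cells was 0.22, and at its lowest -0.54 with an array left out. Of 584 member differences under settings other than leaving out an array, 577 kept their call, 1 lost it and 6 gained it, and of 576 with an array left out, 569 kept it, 5 lost it and 2 gained it. The lost calls were Ptgs2 in myelocytes over promyelocytes (adjusted p = 0.0767 with a trended, robust prior in limma, and adjusted p = 0.063 to 0.101 without any 1 of 4 arrays) and Lta4h in the same step (0.99 without promyelocyte array 3). With no fold minimum, Ltc4s was called lower in promyelocytes and in myelocytes against LSK cells (-0.57 and -0.63), and Lta4h lower in granulocytes than in promyelocytes (-0.55) and higher in granulocytes than in LSK cells (0.87). The calls over all genes were then 2594 in promyelocytes against LSK cells (870 with the fold), 6900 in myelocytes against promyelocytes (3485), 4373 in granulocytes against myelocytes (1657), 7250 in myelocytes against LSK cells (3693), 9933 in granulocytes against promyelocytes (5267) and 10338 in granulocytes against LSK cells (5205). Centring on the 75th percentile moved the median of all genes by 0.16 to 0.22 in the 3 comparisons with granulocytes, while cyclic loess moved it by -0.13 and -0.16 in granulocytes against promyelocytes and against LSK cells, and quantile normalisation by -0.12 in granulocytes against LSK cells.

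Over all populations deviations of same-numbered arrays correlated at -0.25 to 0.25, with 7 of 18 over 0.1. Between myelocytes and promyelocytes all 3 same-numbered pairs were over 0.1. A fit of these 2 populations alone with the replicate block, chosen after seeing the data, called the same 6 members (adjusted p = 1.31e-05 to 0.0158), and 3486 of all genes. With the replicate number as a block in the fit of all 12 arrays the members called were 2, 6, 4, 5, 4 and 4 in promyelocytes against LSK cells, myelocytes against promyelocytes, granulocytes against myelocytes, myelocytes against LSK cells, granulocytes against promyelocytes and granulocytes against LSK cells, as without it. With 3 arrays per population the difference of 1 member is known only to within the intervals given, which were widest for Ptgs2 and Alox15. Ltc4s lay near the dim level, where differences are compressed.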
